A study of Mus musculus with 614 samples.

Results

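The cells described here are common dendritic cell progenitors (CDP) of mouse bone marrow, divided by the transcript of Ly6d, a small lipid-anchored surface protein used to mark lymphoid progenitors. Of the 614 single cells of the series, 58 carry the label of the CD115-negative CDP gate. In 17 of these Ly6d stood at 100 TPM (a cell's transcripts scaled for length and to a fixed total) or more, called Ly6d-high CDP below, and in 41 it stood under 100 TPM, called Ly6d-low CDP. The cells were sorted from the marrow of untreated adult C57BL/6J mice aged 7 to 10 weeks as lineage-negative, CD11c-negative and MHC class II-negative, with Flt3, intermediate c-Kit, and neither CD115 nor IL7R at the surface. Single cells were caught in a microfluidic circuit, and each gave a library of its own. The labels name no animal, so the 58 cells count as 1 sample, no p-value was computed, and every SD and interval below covers the spread or count of cells and not of mice.

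The cells were chosen by their Ly6d level, which is therefore no result here. Just inside the threshold lay cells with 133, 314.1 and 483.4 TPM, and just outside it cells with 55.1, 38.7 and 13.2 TPM. The median was 3369 TPM in Ly6d-high cells and 3.72 TPM in Ly6d-low cells, 5 cells lay between 10 and 100 TPM, and 7 cells were listed at 0. Because the division used a transcript of the same cells, the values of other genes between the 2 sets are a description.

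CDP are progenitors that give rise to conventional dendritic cells, which present antigen to T cells, and to plasmacytoid dendritic cells (pDC), which secrete type I interferon. The pDC programme depends on Tcf4, an E protein that binds E-box sequences, and on the interferon regulatory factor Irf8, while Id2 opposes E proteins. Cells with pDC traits also arise from lymphoid progenitors, which carry the recombination machinery genes Rag1, Rag2 and Dntt and the interleukin-7 receptor gene Il7r.

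The label of the gate was checked first. Flt3, the receptor of the main dendritic cell growth factor, was at 1 TPM or more in 17 of 17 Ly6d-high and 40 of 41 Ly6d-low cells, and averaged 6.92 ± 2.34 and 7.52 ± 2.27 on the log2(TPM + 1) scale. Csf1r, which encodes CD115, reached 100 TPM in 0 of 17 Ly6d-high cells (a true share of up to 17.6% would be compatible with that count) and in 4 of 41 Ly6d-low cells. Kit was low, at 0.59 ± 1.17 in Ly6d-high and 2.06 ± 2.51 in Ly6d-low cells, although the gate was set to intermediate c-Kit protein. Il7r transcript was found at 1 TPM or more in 12 of 17 Ly6d-high and 21 of 41 Ly6d-low cells, all sorted as negative for its protein. Ly6d-high cells had a median of 5479 genes at 1 TPM or more (4533 to 6008), against 5065 (3606 to 7140) in Ly6d-low cells, and a median mitochondrial share of 9.34% against 8.64%. Library numbers of the CDP alternate with those of 24 sorted pDC. The number of 7 of 17 Ly6d-high and 13 of 41 Ly6d-low cells was next to that of a pDC, and what this contributes to pDC transcripts was not tested.

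The promoters of 3 genes that were high with Ly6d and belong to the pDC list are printed here because pDC factors are known to act through the sequences searched. Of the 5 such genes, these are the ones with 2 or more motif matches, and they were picked for that. The windows of the other two, Tex2 with 1 match and Irf8 with 0, are not shown. RefSeq windows run from 250 bases before to 50 after the gene start, on GRCm38.p6, 5′ to 3′ on the gene's strand. The windows are chr7:55767934-55768233 (plus strand) for Siglech, chr11:114960458-114960757 (minus strand) for Cd300c and chr8:71537423-71537722 (minus strand) for Bst2. The GENCODE annotation starts Cd300c further upstream, so by that annotation its window lies inside the gene. Its matches are counted below all the same. Capitals mark CACCTG (an E-box form), the IRF repeat (GAAA, then any 2 bases, then GAAA, bound by interferon regulatory factors) and AACCACA (a Runx motif), on either strand.
Siglech: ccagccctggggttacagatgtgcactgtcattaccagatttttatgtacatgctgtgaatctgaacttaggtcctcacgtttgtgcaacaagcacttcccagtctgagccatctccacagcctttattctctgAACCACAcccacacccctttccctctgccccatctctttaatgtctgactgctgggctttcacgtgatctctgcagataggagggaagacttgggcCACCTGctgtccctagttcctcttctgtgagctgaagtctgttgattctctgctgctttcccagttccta
Cd300c: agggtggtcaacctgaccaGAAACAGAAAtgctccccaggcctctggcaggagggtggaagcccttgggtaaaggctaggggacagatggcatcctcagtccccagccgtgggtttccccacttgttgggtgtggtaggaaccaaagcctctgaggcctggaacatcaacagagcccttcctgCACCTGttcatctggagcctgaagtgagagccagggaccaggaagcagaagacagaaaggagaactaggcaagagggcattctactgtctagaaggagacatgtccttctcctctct
Bst2: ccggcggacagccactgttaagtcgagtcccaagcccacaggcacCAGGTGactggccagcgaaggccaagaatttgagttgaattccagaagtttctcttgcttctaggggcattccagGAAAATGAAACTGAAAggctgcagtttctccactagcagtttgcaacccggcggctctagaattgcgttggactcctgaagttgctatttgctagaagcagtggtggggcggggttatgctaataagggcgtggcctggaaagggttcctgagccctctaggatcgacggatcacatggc

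The 15 genes named below as highest with Ly6d include 14 with a window, and CACCTG was in 4 of these 14 (28.6%), against 20.03% of all 27025 windows searched. The other E-box form searched, CAGCTG, was in 2 of 14 (14.3%), against 16.1% of all. The IRF repeat was in 3 of 14 (21.4%), against 3.49% of all windows. AACCACA was also in 3 of 14 (21.4%), against 5.37% of all. Over the pDC list, 20 of 24 genes had a window, and 8 held CACCTG (40%), 2 CAGCTG (10%), 3 the IRF repeat (15%) and 5 AACCACA (25%). Of the 15 genes named as highest in Ly6d-low cells, 11 had a window, and 2 held CACCTG (18.2%), 6 CAGCTG (54.5%), 1 the IRF repeat (9.09%) and 1 AACCACA (9.09%). The 2 IRF repeats in Bst2 overlap each other. A match is a run of letters and no measured site.

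Ly6d-high CDP carried more transcript of early pDC genes. Siglech, the sialic acid-binding lectin of pDC, ranged from 0 to 2398 TPM with a median of 460 TPM in Ly6d-high cells, and from 0 to 941.2 TPM with a median of 2.15 TPM in Ly6d-low cells. It reached 100 TPM in 12 of 17 Ly6d-high cells (70.6%, with a Clopper-Pearson 95% interval of 44.04 to 89.7%) and in 6 of 41 Ly6d-low cells (14.6%, 5.57 to 29.2%). Traces of 1 TPM or more were also found in 72.5% of granulocyte-monocyte progenitors (GMP), a gate expected to lack it, but at 100 TPM in 3.92% of them, so shares are given at 100 TPM. The ranges overlapped, but 3 cells reached 1000 TPM and all 3 were Ly6d-high. Its mean log2(TPM + 1) was 4.30 higher in Ly6d-high cells, at 7.08 ± 3.74 against 2.78 ± 2.73.

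Tcf4 ranged from 25.2 to 1216 TPM with a median of 448.7 TPM in Ly6d-high cells, against 0 to 827 TPM with a median of 147 TPM in Ly6d-low cells. It reached 100 TPM in 16 of 17 Ly6d-high cells (94.1%, 71.3 to 99.9%) and in 22 of 41 Ly6d-low cells (53.7%, 37.4 to 69.3%), a difference of 2.29 in mean log2(TPM + 1). No Ly6d-high cell lacked Tcf4, while many Ly6d-low cells held as much as they did. Irf8 showed the same floor, with 122 to 2339 TPM (median 945.7) in Ly6d-high cells and 0 to 1612 TPM (median 185) in Ly6d-low cells. All 17 Ly6d-high cells were above 100 TPM, against 25 of 41 Ly6d-low cells (60.98%), and the means were 9.85 ± 1.08 and 6.30 ± 3.31.

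**Figure D1:**
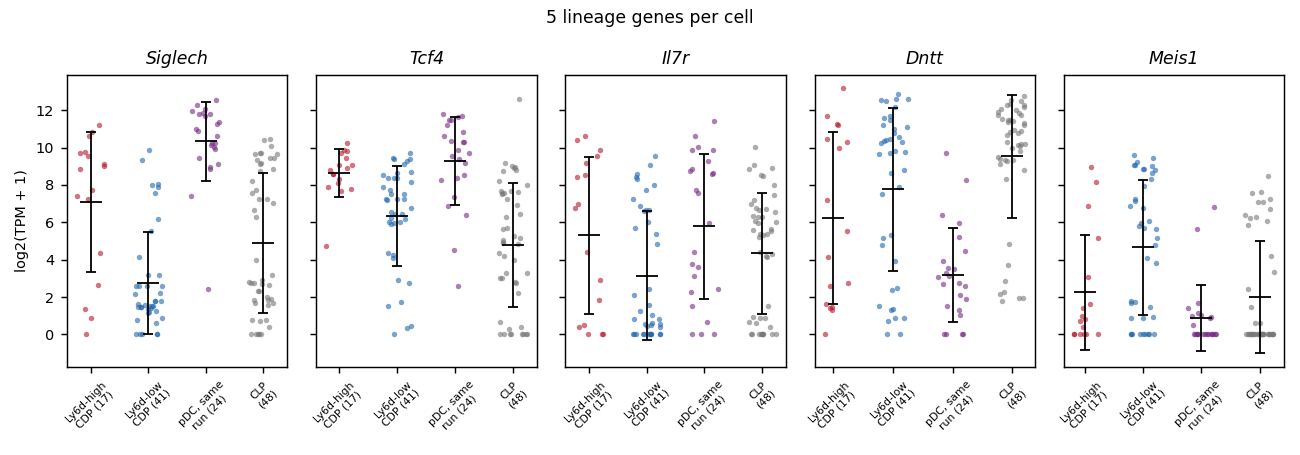
Level per cell of Siglech, Tcf4, Il7r, Dntt and Meis1 as log2(TPM + 1) in 17 Ly6d-high CDP, 41 Ly6d-low CDP, 24 sorted pDC and 48 common lymphoid progenitors (CLP). The axis label "same run" means only that library numbers of these pDC alternate with those of the CDP. Points are cells, and black bars are the mean ± SD over cells; the Ly6d-high cells stand above the Ly6d-low cells for Siglech (means 7.08 and 2.78) and Tcf4 (8.63 and 6.34) and below them for Meis1 (2.25 and 4.67).

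Other pDC genes were high in part of the Ly6d-high cells only. Bst2, a surface protein that tethers virus particles and marks mouse pDC, reached 100 TPM in 9 of 17 Ly6d-high cells, against 3 of 41 Ly6d-low cells. Cd300c, an immune receptor gene, did so in 7 of 17 against 2 of 41, and Tex2, which encodes a putative lipid transfer protein, in 6 of 17 against 2 of 41. Cd7, a surface protein of lymphoid and pDC progenitors, reached 100 TPM in 8 of 17 Ly6d-high and 5 of 41 Ly6d-low cells. Runx2, a transcription factor needed for pDC to leave the marrow, averaged 7.41 ± 2.87 in Ly6d-high and 5.64 ± 3.01 in Ly6d-low cells, a difference of 1.77.

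Over the list of 24 pDC genes, 20 were higher and 4 lower in Ly6d-high cells, with a median difference of 1.30, and 8 differed by 2 or more on the log2 scale. For comparison, 8749 genes in all were at 1 TPM in 20% or more of the CDP cells. Of these, 57.6% were higher by any amount, 42.4% lower, 1.92% higher by 2 or more and 0.754% lower by 2 or more, and their median was 0.12. Of the 24, 20 passed that filter. The lowest members were Tlr7, the receptor for single-stranded RNA, at -0.56, and Irf7, the interferon-inducing factor, at -0.38. The mean level of the 24 genes per cell was 3.78 ± 1.06 in Ly6d-high and 2.20 ± 0.64 in Ly6d-low cells, against 5.57 ± 1.02 in the pDC of the same run and 2.38 ± 0.89 in CLP.

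Genes of the mature pDC were mostly low. Of a list of 10, 8 were higher in Ly6d-high cells and 2 lower, against 57.6% of all genes higher. The median of the 10 was 0.79, and Cd300c alone passed a difference of 2. The per-cell mean of the list was 2.05 ± 1.13 in Ly6d-high, 1.13 ± 0.75 in Ly6d-low and 6.33 ± 2.07 in sorted pDC. In GMP it was 2.18 ± 0.84, as high as in Ly6d-high cells, and in CLP 1.26 ± 0.89. Its summed level ran from 26.6 to 2213 TPM (median 418.3) in Ly6d-high and from 0 to 1019.3 TPM (median 103) in Ly6d-low cells. Spib, a late transcription factor of pDC, was listed at 0 in the median cell of both sets and reached 100 TPM in 2 of 17 against 0 of 41. Ccr9, a homing receptor of mature pDC, reached 100 TPM in 1 of 17 Ly6d-high and 3 of 41 Ly6d-low cells, against 66.7% of pDC. Klk1, a kallikrein gene high in pDC, did so in 0 of 17 and 0 of 41, against 54.2% of pDC. At least 2 of 6 mature genes were at 100 TPM in 4 of 17 Ly6d-high cells and 0 of 41 Ly6d-low cells (limit for a count of 0: 7.32%). Without those 4 cells the pDC list median was 0.999. All 6 genes also belong to the pDC list, and only Ly6d-high cells were left out. Part of any fall in that median therefore follows from the choice of cells. The cell cycle kinase gene Cdk6 also differed from pDC, at 8.67 ± 2.44 in Ly6d-high, 9.04 ± 2.18 in Ly6d-low and 3.44 ± 2.79 in pDC.

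The E protein and Id genes moved unevenly. Besides Tcf4, the E protein genes Tcf3 and Tcf12 were 1.14 and 0.91 higher in Ly6d-high cells. Id2 was at 2.70 ± 4.11 in Ly6d-high and 2.80 ± 3.68 in Ly6d-low cells, a difference of -0.10, and reached 100 TPM in 4 of 17 and 10 of 41. Id1 was at 0 in all 17 Ly6d-high cells and at 100 TPM in 1 Ly6d-low cell. Id3 averaged 1.77 ± 3.33 in Ly6d-high and 1.25 ± 2.84 in Ly6d-low cells, a difference of 0.52, and reached 100 TPM in 3 of 17 and 5 of 41.

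Early lymphoid genes divided among themselves. Of 16, 6 were higher and 10 lower in Ly6d-high cells, with a median of -0.14, against 42.4% of all genes lower. Highest were Blnk, an adaptor of B cell receptor signalling, with a difference of 2.64, and Il7r with 2.17. Il7r ranged from 0 to 1557 TPM with a median of 107 TPM in Ly6d-high cells, and from 0 to 735 TPM with a median of 1.07 TPM in Ly6d-low cells, and it reached 100 TPM in 9 of 17 (52.9%, 27.8 to 77.0%) and 11 of 41 (26.8%, 14.2 to 42.9%). The intervals overlap. Lowest were Rag2, a recombinase subunit, at -1.83, and Dntt, the terminal transferase, at -1.54.

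Dntt was the most divided of the 5 lineage genes. It ran from 0 to 9400 TPM with a median of 44.9 TPM in Ly6d-high cells, and from 0 to 7395 TPM with a median of 884.4 TPM in Ly6d-low cells, and 7 Ly6d-high and 19 Ly6d-low cells were at 1000 TPM or more. It reached 100 TPM in 8 of 17 (47.1%, 22.98 to 72.2%) against 27 of 41 (65.9%, 49.4 to 79.9%). Its difference of -1.54 was 1.70 without the cells at 100 TPM or more of Siglech, which left 5 Ly6d-high and 35 Ly6d-low cells. Rag1, the other recombinase subunit, reached 100 TPM in 0 of 17 and 0 of 41. Of 10 B lineage genes, Pax5, Cd79a, Igll1 and Pou2af1 were at 0 in all 58 cells. Ebf1, the early B lineage factor, averaged 1.08 ± 2.22 in Ly6d-high and 0.68 ± 1.35 in Ly6d-low cells.

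Genes of multipotent progenitors were lower in Ly6d-high cells. Of 16, 13 were lower, 1 (Hoxa7, at 1.12) higher and 2 at 0 throughout, with a median of -0.72. Over all genes 42.4% were lower by any amount. Of the 16, 4 were lower by 2 or more, against 0.754% of all genes. Meis1, a homeobox factor of stem cells, ranged from 0 to 505.8 TPM with a median of 0.75 TPM in Ly6d-high cells, and from 0 to 781.2 TPM with a median of 48.7 TPM in Ly6d-low cells. It reached 100 TPM in 3 of 17 (17.6%, 3.80 to 43.4%) against 16 of 41 (39.02%, 24.2 to 55.5%). Angpt1, an angiopoietin gene, differed by -2.46, with 1 of 17 and 20 of 41 cells at 1 TPM or more. Cd34 differed by -2.19 and the factor Lmo2 by -2.001.

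Several granule and lysozyme genes were also lower. Mpo, the myeloperoxidase of granules, was at 0 to 753 TPM (median 0.54) in Ly6d-high and 0 to 3978.2 TPM (median 47.8) in Ly6d-low cells, and 2 of 17 against 18 of 41 cells reached 100 TPM. Prtn3, a granule protease, reached it in 0 of 17 against 13 of 41, and Lyz2, the lysozyme of myeloid cells, in 0 of 17 against 11 of 41. Elane, the neutrophil elastase, averaged 0.00 in Ly6d-high and 0.26 ± 1.26 in Ly6d-low cells. Of 12 granule genes, 7 were lower and 2 higher, and 3 were at 0 in all cells. The median over the 12 was -0.15. For comparison with the counts in this paragraph, 42.4% of all genes were lower and 57.6% higher. Only 3 of the 12 granule genes passed the filter on the share of cells, and the median of these was -2.73. Monocyte genes went both ways, with 5 higher and 6 lower of 11. The highest was Ly86, a partner of a Toll-like receptor relative, at 1.86, and Klf4, a monocyte factor, stood at 1.81. Genes of conventional dendritic cells divided 8 to 8, with a median of -0.03, and MHC class II genes 5 to 2 with a median of 0.14.

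**Figure D2:**
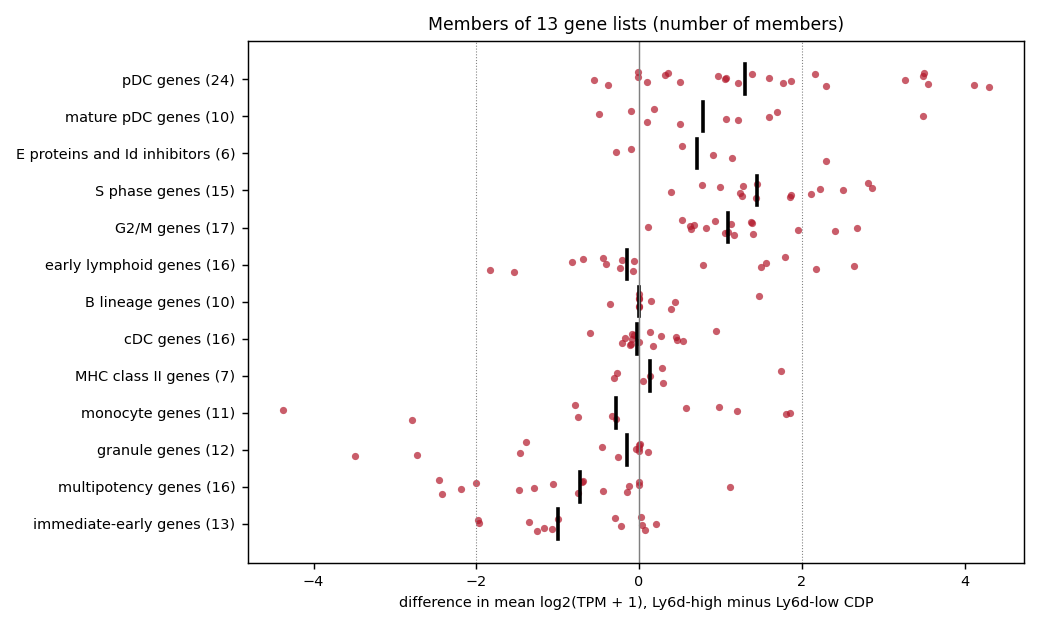
Difference in mean log2(TPM + 1), Ly6d-high minus Ly6d-low CDP, for every member of 13 gene lists, with the number of members in brackets. Points are genes, black bars list medians and dotted lines differences of 2 and -2; pDC genes (median 1.30), S phase genes (1.45) and G2/M genes (1.09) lie to the right, multipotency genes (-0.72) and immediate-early genes (-1.0) to the left.

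Over all genes passing the naming rule, the 15 with the largest difference towards Ly6d-high cells held 5 of the 24 pDC genes (Siglech, Bst2, Irf8, Tex2 and Cd300c). That list was chosen with earlier results of these data known, so the overlap is a description and gives no support. The 15 were 0.797% of the 1883 higher genes that met the rule's other conditions, and 14 of the 24 pDC genes met them. The largest was Smc2, a condensin subunit that compacts chromosomes, with a median of 403 TPM in Ly6d-high and 2.08 TPM in Ly6d-low cells and a difference of 4.46. Tipin, which stabilises stalled replication forks, followed the same pattern, at 4.01. Over the 58 cells, Spearman's rho with the number of genes per cell was 0.43 for Tipin, 0.55 for Smc2 and 0.11 for Siglech. Grn, the growth factor progranulin, was in 17 of 17 Ly6d-high and 32 of 41 Ly6d-low cells at 1 TPM or more, a difference of 4.13. Sdc4, a heparan sulfate proteoglycan of the cell surface, reached 100 TPM in 14 of 17 against 11 of 41, a difference of 3.998. The others were Nucb2, a calcium-binding protein gene (4.03), Cnp, a nucleotide phosphodiesterase gene (3.91), Kctd12, a receptor auxiliary subunit gene (3.85), Gsn, the actin-severing gelsolin (3.66), Ly6c2 (3.63) and Gnb2, a G protein subunit gene (3.51). Ly6c2 has a near-identical neighbour, Ly6c1, and reads may be divided between them. Grn, Cnp, Irf8 and Gnb2 overlap another annotated gene, and strandedness is not stated.

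The 15 largest differences towards Ly6d-low cells were led by Ifitm3, an interferon-induced membrane protein that restricts viruses. Its median was 0 TPM in Ly6d-high and 84.8 TPM in Ly6d-low cells, 1 of 17 against 20 of 41 cells reached 100 TPM, and the difference was -4.37. Cd81, a tetraspanin, reached 100 TPM in 0 of 17 against 15 of 41 (difference -3.93), and Egfl7, a secreted endothelial and stem cell factor, in 0 of 17 against 15 of 41 (-3.40). Myc, the growth regulator, did so in 1 of 17 against 14 of 41 (-3.31). Calcrl, a peptide hormone receptor (-3.67), Ncf4, an oxidase subunit (-3.53), Mpo (-3.49), Ifi27 (-3.26), Nkg7, a granule membrane protein of cytotoxic cells (-3.12) and Wfdc17 (-3.07) followed. The last were Dpcd (-2.94), the haematopoietic factor Lyl1 (-2.81), the chaperone partner St13 (-2.79), Lyz2 (-2.79) and Tmem176a (-2.75). St13 was the only one of the 15 with 100 TPM in over 40% of Ly6d-high cells, in 7 of 17 (41.2%). Egfl7, Lyl1 and Tmem176a overlap another annotated gene.

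**Figure D3:**
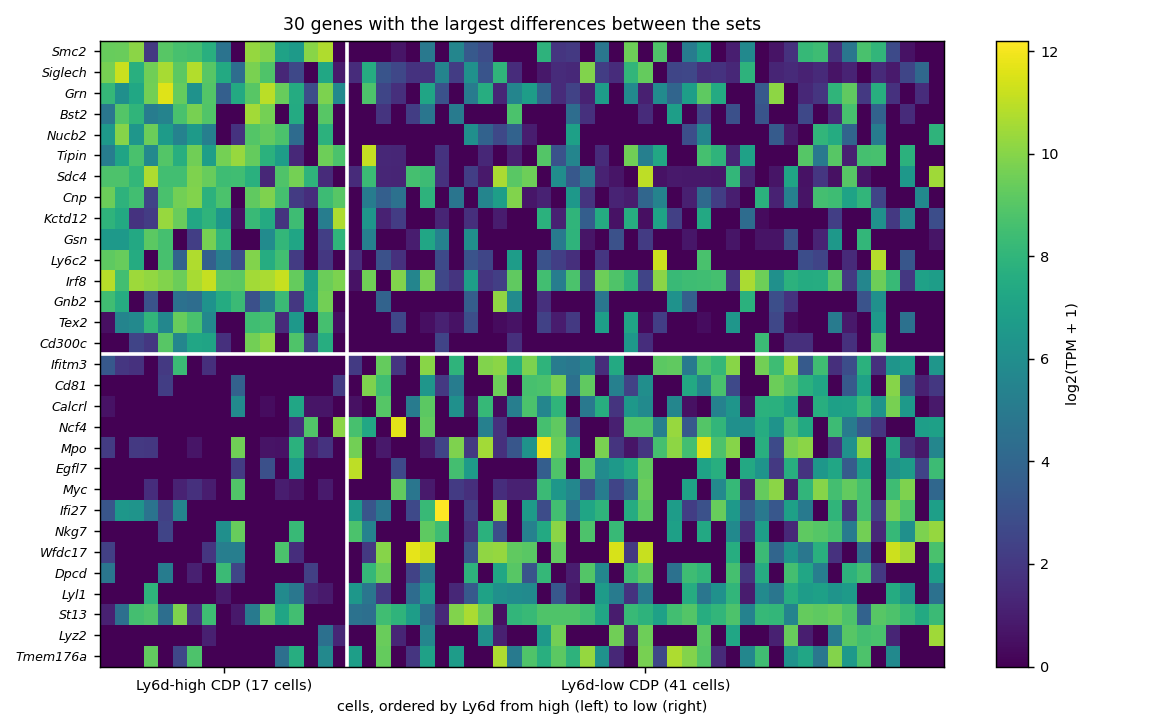
Level of the 30 named genes as log2(TPM + 1) in the 58 CDP cells, one column a cell, ordered by Ly6d from high (left) to low (right), with the 17 Ly6d-high cells left of the white line. The rows above the horizontal line are brighter on the left and those below it on the right; Irf8 is above 100 TPM in all 17 Ly6d-high cells, and Cd81 and Lyz2 are below 100 TPM in all of them.

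Cell cycle genes moved with the division. For the counts in this paragraph, 57.6% of all genes were higher in Ly6d-high cells and 42.4% lower. All 15 S phase genes were higher in Ly6d-high cells, with a median of 1.45 and 5 past a difference of 2, among them the ribonucleotide reductase subunit Rrm2 (2.87), the DNA methylation cofactor Uhrf1 (2.82) and the thymidylate synthase Tyms (2.50). All 17 G2/M genes were higher too, with a median of 1.09, led by the mitotic kinase Aurkb (2.67) and the topoisomerase Top2a (2.41). That median was 0.69 to 1.203 when 1 Ly6d-high cell was left out at a time. The mean S phase level per cell was 5.19 ± 2.04 in Ly6d-high, 3.51 ± 2.21 in Ly6d-low and 2.29 ± 2.21 in sorted pDC. Among the 29 cells above the median S phase level, of which 14 were Ly6d-high and 15 Ly6d-low, the S phase median was -0.03, the pDC median 1.397 and the multipotency median -0.45. Among the 29 cells at or below it, with 3 Ly6d-high and 26 Ly6d-low cells, the S phase median was -0.61 and the pDC median 0.48. Of immediate-early genes, which respond to handling and to stimulation, 4 were higher and 9 lower, with a median of -1.0, and the lowest were Dusp1 (-1.98) and Ier3 (-1.97). Leaving out 1 Ly6d-high cell at a time moved the immediate-early median between -1.15 and -0.51. The part of the immediate-early genes in the other differences was not tested.

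The 17 Ly6d-high cells were not uniform. Siglech was at 100 TPM in 12 of them and below in 5. The pDC list averaged 4.34 ± 0.54 in the 12 and 2.42 ± 0.68 in the 5, against 2.86 ± 0.36 in the 6 Ly6d-low cells with Siglech and 2.09 ± 0.62 in the 35 without. Siglech is one of the 24 genes of that list. Bst2 averaged 7.41 ± 3.01 in the 12 and 1.49 ± 3.34 in the 5, against 0.53 ± 0.83 in the 6 Ly6d-low cells with Siglech and 1.73 ± 2.55 in the 35 without. Irf8 stayed high in both, at 10.08 ± 0.79 in the 12 and 9.28 ± 1.54 in the 5, against 5.82 ± 4.01 and 6.38 ± 3.24 in the Ly6d-low cells with and without Siglech.

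The 5 Ly6d-high cells without Siglech had Dntt at 9400, 1013.4, 1281, 2344 and 1.76 TPM, so 4 of 5 were above 100 TPM, against 4 of the 12 with Siglech. In the same order of cells Tcf4 was at 207, 316.7, 25.2, 448.7 and 386 TPM. Il7r in these cells was at 124, 20.2, 0.31, 1557 and 0 TPM. Ifitm3 was at 0 in all 5. The lowest Irf8 value of the Ly6d-high cells, 122 TPM, belonged to the cell with the most Il7r and the most Meis1 (505.8 TPM). Siglech and Dntt were both at 100 TPM in 4 of 17 Ly6d-high and 5 of 41 Ly6d-low cells, and Siglech and Il7r in 7 of 17 and 2 of 41. Mpo was lower with Siglech in both sets, at 0.77 ± 0.92 in the 12 and 3.79 ± 4.51 in the 5 Ly6d-high cells, and at 0.71 ± 0.88 in the 6 and 5.91 ± 4.10 in the 35 Ly6d-low cells.

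**Figure D4:**
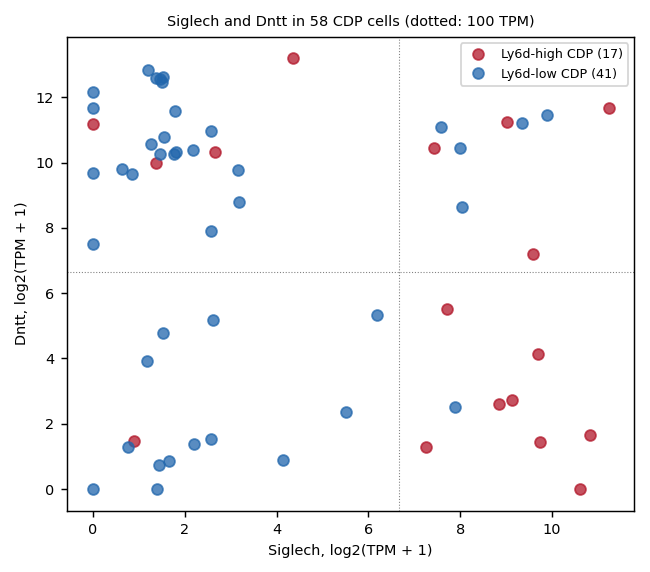
Siglech against Dntt per cell, both as log2(TPM + 1), in 17 Ly6d-high (red) and 41 Ly6d-low (blue) CDP, with dotted lines at 100 TPM. Of the Ly6d-high cells 8 hold Siglech without Dntt, 4 both and 4 Dntt without Siglech; of the Ly6d-low cells 1, 5 and 22 do.

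The same threshold was then applied in other gates, whose cells took no part in choosing the genes above. Among 48 CLP, lymphoid progenitors of the marrow, 29 were Ly6d-high and 19 Ly6d-low. All 15 genes named as higher in Ly6d-high CDP were also higher in Ly6d-high CLP, against 39.3% of all genes passing the 20% filter in CLP. All 14 of the 15 lower ones that passed the 20% filter were lower, against 60.7% of all genes. Siglech averaged 6.32 ± 3.61 in Ly6d-high and 2.73 ± 2.84 in Ly6d-low CLP, Irf8 8.48 ± 2.88 and 5.37 ± 3.38, and Ifitm3 3.36 ± 4.08 and 6.62 ± 4.34. Some differences were small, with Gnb2 near 0.

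Among 45 SiglecH+Ly6C+ pre-DC, later dendritic precursors, 13 were Ly6d-high and 32 Ly6d-low. There 12 of the 15 genes were higher in Ly6d-high cells, against 51.9% of all genes, with Grn, Kctd12 and Gnb2 opposite. Irf8 averaged 10.15 ± 0.69 in Ly6d-high and 7.61 ± 3.14 in Ly6d-low pre-DC. Of the 15 lower genes only 7 passed the filter and 4 of these were lower, against 48.1% of all genes. Ifitm3 was at 0.16 ± 0.59 in Ly6d-high and 4.61 ± 4.25 in Ly6d-low pre-DC, a difference of -4.45. pDC genes were higher in 18 of 24 cases in CLP and 19 of 24 in pre-DC. S phase genes were higher in 14 of 15 in both gates, but G2/M genes in 8 of 17 in CLP and 2 of 17 in pre-DC. The lineage genes varied, and Meis1 differed by 0.37 in CLP and 0.30 in pre-DC, against -2.42 in CDP. In pre-DC Meis1 did not pass the filter. The multipotency list of 16 genes did not follow Meis1 in CLP. There 12 of its genes were lower and 2 higher, with a median of -0.72, against 60.7% of all genes lower. In pre-DC 4 genes of that list were lower and 6 higher, with a median of 0. Library numbers of the CLP run on into those of other gates, and no animal is named there either.

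**Figure D5:**
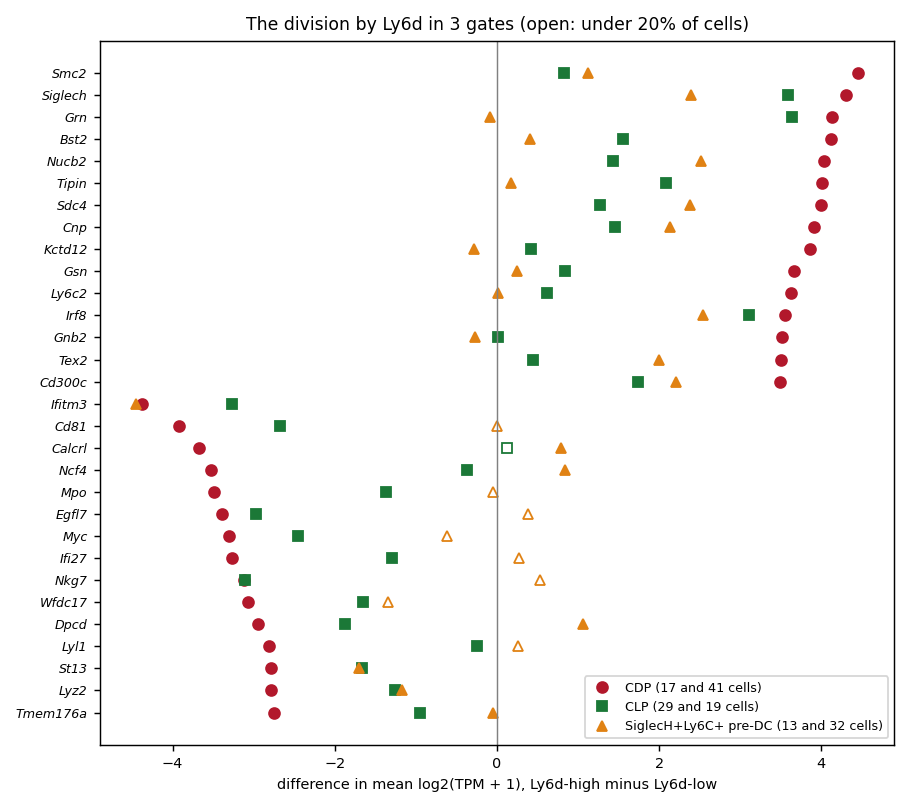
Difference in mean log2(TPM + 1), Ly6d-high minus Ly6d-low, for the 30 genes named in CDP (circles), in the same division of CLP (squares) and of SiglecH+Ly6C+ pre-DC (triangles); open symbols mark genes under the 20% filter in that gate. The circles were chosen for their size; for the 15 upper genes all squares and 12 triangles lie right of 0, and Ifitm3 lies left of 0 in all 3 gates.

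Markers of most other cell types were at or near 0 in the median cell of both sets, but some Ly6d-low cells held more. Of 6 basophil and mast cell genes all were at 0 in all 58 cells, as were 7 of 8 neutrophil genes and 5 of 7 macrophage genes. The summed erythroid level ran from 0 to 26.7 TPM in Ly6d-high and from 0 to 1653 TPM in Ly6d-low cells. Car2, a carbonic anhydrase gene, was the only one of that list to differ by 2 or more (-2.08), at 100 TPM in 0 of 17 and 8 of 41 cells, and the erythroid factor Klf1 was at 0 throughout. The T and NK cell list ran from 0 to 669.5 TPM and from 0 to 1243 TPM, with medians of 2.69 and 53.7 TPM, and Nkg7 was its only member past 2, at 100 TPM in 2 of 17 and 18 of 41. The summed platelet level ran from 0 to 19 TPM in Ly6d-high and from 0 to 747.1 TPM in Ly6d-low cells, with Pf4 and Ppbp at 0 throughout. The plasma cell list ran from 0 to 275.3 TPM (median 23.6) in Ly6d-high and from 0 to 1983 TPM (median 8.29) in Ly6d-low cells. Its member Sdc1, a surface proteoglycan, reached 100 TPM in 3 of 17 and 7 of 41 cells. The part of these cells in the other differences was not tested.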

How the data were processed

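The authors deposited TPM per gene symbol and cell (43280 symbols, 614 cells), made with RSEM 1.2.19 on GRCm38 per the submitters' processing notes. The aligner is not given in the sources used here, nor is the annotation. TPM keep no read counts, so depth is unknown and genes at 1 TPM or more stand in for it.

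Each gate was 1 sample without replicates. Per gene the value was the difference between the 2 sets of cells in mean log2(TPM + 1), over genes that reached 1 TPM in 20% or more of the CDP cells. Shares of cells have 95% intervals (exact, Clopper-Pearson), and for a count of 0 the limit is 3 cells of the total. These cover counting error only. The named genes are the 15 largest differences in each direction among genes found in 50% or more of the higher set's cells, with the same sign in the mean TPM. Left out were Ly6d, receptor segments, transcripts under 200 nucleotides, pseudogenes, predicted genes, Xist, Y-linked genes, and genes that are mitochondrial or for ribosomal proteins. The lineage genes and the highest and lowest members of the 22 gene lists were added. Some list members are not reported here. The members and lists were chosen with earlier results of these data known. Doublets were not called. An alternative leaves out the 5% of CDP cells with the most genes, which kept all 17 Ly6d-high and 38 of 41 Ly6d-low cells. Because it removed no Ly6d-high cell, it says nothing of doublets among these. No cells had like profiles (highest Spearman correlation between cells 0.45). Promoter windows outside chromosome 18 came from RefSeq on GRCm38.p6 and overlaps from GENCODE on GRCm38. The work used scipy 1.17.1, pandas 2.3.3, numpy 2.4.6 and matplotlib 3.10.9 under Python 3.11.15. Only the per-gene differences were tested on simulated data. For these, each gene's values were permuted over the CDP cells and 200 genes were raised 8-fold in 1 of the 2 sets.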

Additional observations from a re-analysis of the deposited data

How the results depend on the processing

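Of the 30 genes with the largest differences and the lineage genes, 34 in all, 28 kept their direction under all 15 alternatives. Part of this count was fixed beforehand. The 30 genes were chosen for large differences in these same cells and for the same sign in the mean TPM. They could therefore not turn on the log2 of mean TPM. Leaving out cells under 2000 genes removed no cell and could turn no gene. Genes past a difference of 2, as a percentage of the 8749 tested, were 1.92% higher and 0.754% lower. They were 6.71% and 2.93% with a pseudocount of 0.1, which moved the median of all genes by 0.11, 0.286% and 0.0571% with a pseudocount of 10, and 4.41% and 7.18% on the log2 of mean TPM. Higher were 0.777% at a Ly6d threshold of 10 TPM, 3.60% at 1000 TPM and 1.22% with a filter at 50% of cells. Size factors gave 2.63% higher and 0.606% lower. With only list members past the filter, medians were -2.73 (granule), 0.46 (cDC), -2.08 (erythroid), 0.32 (platelet) and -1.68 (T and NK cell), and on the log2 of mean TPM -1.62 (granule and erythroid). At 10 TPM or more, Tcf4 was in 100% of Ly6d-high and 82.9% of Ly6d-low cells, and Meis1 in 60.98% of Ly6d-low cells. The causes of these shifts were not tested beyond what each setting changes by its construction.

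Chosen after seeing the data were divisions by S phase level, leaving out cells with Siglech, and leaving out each Ly6d-high cell in turn. Above the median S phase level, the S phase median was -0.029, and 3.94% of genes were lower. At or below it, with 3 Ly6d-high and 26 Ly6d-low cells, 13.4% of genes were higher and 4.79% lower, and medians were 0.48 (pDC), -0.015 (mature pDC), -0.61 (S phase), -0.057 (G2/M) and 0.37 (immediate-early). Genes with the opposite sign there were Cnp (-0.79), Ly6c2 (-0.82), Lyl1 (0.34), Tmem176a (1.27) and Dntt (0.69). Without cells with Siglech at 100 TPM, 5 Ly6d-high and 35 Ly6d-low cells were left, 5.98% of genes were higher and 4.09% lower, Bst2 was at -0.24 and Dntt at 1.70, and medians were 0.027 (pDC), -0.078 (mature pDC), -0.30 (G2/M) and 0.42 (immediate-early). Leaving out 1 Ly6d-high cell at a time gave medians of 1.18 to 1.54 (pDC), 0.69 to 1.203 (G2/M), -1.15 to -0.51 (immediate-early), 0 to 0.45 (growth factor receptors), -0.27 to 0.01 (early lymphoid), -0.07 to 0.04 (cDC), -0.04 to 0.22 (MHC class II) and 0.41 to 0.87 (E proteins and Id), differences of -0.73 to 0.07 for Id2 and -0.14 to 0.46 for Ebf1, with 1.85 to 2.56% of genes higher and 0.674 to 0.857% lower. No cell had fewer than 2000 genes, and no cell had Xist without a Y-linked transcript, so the latter division gives no value. No paired analysis was possible because the replicate numbers only name cells and the differences come from no test. TPM without counts limit what can be said of single low values.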

Other observations

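Ribosomal protein genes, listed after their values were seen, were lower in Ly6d-high CDP in 77 of 80 cases, against 42.4% of all genes. Their median difference was -0.63. Their summed share of TPM had a median of 8.22% in Ly6d-high cells (5.50 to 11.7%) and 12.1% in Ly6d-low cells (8.73 to 23.96%). In the same division of CLP, 68 of 80 were lower (median -0.37), against 60.7% of all genes. The median shares of TPM there were 10.8% in Ly6d-high and 11.6% in Ly6d-low cells. In SiglecH+Ly6C+ pre-DC 55 of 80 were lower (-0.17), against 48.1% of all genes, with shares of 7.44% in Ly6d-high and 8.72% in Ly6d-low cells. TPM sum to a fixed total, so a share that is lower in one group of genes is matched by a higher share in the rest.

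The receptors for growth factors and interferon divided 8 higher, 5 lower and 2 at 0 of 15 in CDP, with a median of 0.41. Of all genes 57.6% were higher. The type I interferon receptor gene Ifnar1 averaged 3.997 ± 2.73 in Ly6d-high and 2.58 ± 2.77 in Ly6d-low cells, and the granulocyte colony-stimulating factor receptor gene Csf3r 0.54 ± 0.80 and 1.84 ± 2.86. Of 14 interferon-induced genes, 10 were lower and 4 higher, with a median of -0.17, against 42.4% of all genes lower. Only 7 of the 14 passed the filter on the share of cells, and the median of these was -0.33. The lowest of the 14 was Rtp4 at -1.56, which did not pass. Rtp4 was at 1 TPM or more in 0 of 17 Ly6d-high and 11 of 41 Ly6d-low cells. Ighm, the immunoglobulin heavy chain gene, was at 11.25 ± 0.75 in Ly6d-high and 10.46 ± 1.39 in Ly6d-low cells.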
